A study of Homo sapiens with 4 samples.

Results

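The replication-dependent histone genes are the genes that carry the HIST1H, HIST2H, HIST3H and HIST4H symbols, and all were taken from the deposited tables by those symbols alone. They came to 67 of the 25317 gene symbols in the tables. By class, with annotated pseudogenes counted, 6 are genes of linker histone H1, 16 of H2A, 20 of H2B, 12 of H3 and 13 of H4. By symbol, 56 belong to HIST1, 7 to HIST2, 3 to HIST3 and 1 to HIST4. Their RNA was measured in MCF10A cells, an established human mammary epithelial line that is not tumorigenic.

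The 4 groups were cells given a lentivirus (pHIV-ZsGreen) that carried Zeb1, Snail, Ovol2 or, as the empty vector control (EV), no factor. All 4 were grown with horse serum, epidermal growth factor, cholera toxin and insulin, and GFP-positive cells were sorted 6 days after infection. Zeb1 and Snail are zinc finger repressors that drive the epithelial-to-mesenchymal transition, and Ovol2 is a zinc finger factor that favours the epithelial state. Each group held 1 library made from total RNA with the TruSeq RNA v2 protocol. No spread between cultures can be measured with 1 library per group, so differences below have no replicate check and no p-value.

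Core histones H2A, H2B, H3 and H4 form the protein spool of the nucleosome, and H1 binds the DNA between spools. The replication-dependent genes are transcribed mainly in S phase, when new chromatin is assembled, from clusters on chromosomes 1 and 6 that gather in a nuclear compartment, the histone locus body. Their messages normally end in a conserved stem-loop bound by SLBP in place of a poly(A) tail. The TruSeq RNA v2 protocol selects RNA with oligo-dT, so what was counted is whatever part of these messages was retained with poly(A) RNA. The values are therefore levels in a poly(A)-selected library and not the full amount of histone mRNA. Whether the retained share was alike in the 4 libraries was not tested.

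The stem-loops are shown because they mark the end that sets these messages apart from other mRNA. GENCODE v29 transcripts (GRCh38) were searched on the transcript strand for 16 bases that read GG, any 2 bases, CTT, any base, T, any base, AG, any 2 bases and CC. The pattern was found in 27 of the 67 histone genes and in 0.163% of 206570 transcripts of other genes. Many v29 histone models stop before the end of the message, so a gene without a match may lie in a short model. All letters are in capitals, 5′ to 3′, because the whole 16 bases are the searched element.
HIST1H2AC and 12 other H2A, H2B and H3 genes: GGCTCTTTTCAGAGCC
HIST1H2BD and 4 other H2B and H3 genes: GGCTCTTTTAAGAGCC
HIST1H4E and 4 other H4 genes: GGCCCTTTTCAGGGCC
HIST1H2AG and HIST2H2BC: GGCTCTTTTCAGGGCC
HIST1H4I: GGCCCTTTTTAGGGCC
HIST1H3E: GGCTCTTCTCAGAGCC

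All 5 genes with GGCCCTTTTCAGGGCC were H4 genes, and the 13 with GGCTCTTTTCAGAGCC held no H4 gene. HIST1H4I and HIST1H3E each carried a form of the stem-loop seen in no other of the 27 genes.

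Promoters are shown for the genes with the lowest Zeb1 ratio among H2A, H2B and HIST1 H3 genes, and for a pair of H4 genes far apart in theirs, from RefSeq windows on GRCh38.p14 that run from 250 bases before to 50 bases after the annotated start. HIST1H2AJ lies at chr6:27814728-27815027 on the minus strand, HIST1H2BI at chr6:26272681-26272980 on the plus strand and HIST1H3A at chr6:26020201-26020500 on the plus strand. HIST1H4D lies at chr6:26189063-26189362 on the minus strand and HIST1H4E at chr6:26204360-26204659 on the plus strand. Capitals mark matches, on either strand, to TATAAA (the TATA box), CCAAT (bound by NF-Y), ATTTGCAT (the octamer bound by POU2F1), AAACACA (an element known from H1 genes), CAGGTG (the E2-box bound by ZEB and SNAIL proteins) and CCGTTA (the core bound by OVOL proteins).
HIST1H2AJ: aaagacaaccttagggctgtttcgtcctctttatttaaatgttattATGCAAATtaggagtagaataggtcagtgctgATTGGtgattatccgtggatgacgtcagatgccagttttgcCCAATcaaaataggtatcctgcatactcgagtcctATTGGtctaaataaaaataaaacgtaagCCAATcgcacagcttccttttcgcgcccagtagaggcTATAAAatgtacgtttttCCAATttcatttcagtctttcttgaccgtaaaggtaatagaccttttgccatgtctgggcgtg
HIST1H2BI: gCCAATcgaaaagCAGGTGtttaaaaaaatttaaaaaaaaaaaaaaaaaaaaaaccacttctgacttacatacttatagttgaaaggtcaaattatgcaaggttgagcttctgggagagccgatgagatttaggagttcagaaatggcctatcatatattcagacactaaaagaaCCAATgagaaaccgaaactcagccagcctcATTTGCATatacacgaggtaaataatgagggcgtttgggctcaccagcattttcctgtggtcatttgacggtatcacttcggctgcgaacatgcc
HIST1H3A: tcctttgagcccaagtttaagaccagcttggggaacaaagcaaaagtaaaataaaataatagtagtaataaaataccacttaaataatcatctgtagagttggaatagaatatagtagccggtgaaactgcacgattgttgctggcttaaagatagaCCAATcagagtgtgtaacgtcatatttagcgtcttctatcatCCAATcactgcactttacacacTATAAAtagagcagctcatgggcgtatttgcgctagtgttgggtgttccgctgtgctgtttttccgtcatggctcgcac
HIST1H4D: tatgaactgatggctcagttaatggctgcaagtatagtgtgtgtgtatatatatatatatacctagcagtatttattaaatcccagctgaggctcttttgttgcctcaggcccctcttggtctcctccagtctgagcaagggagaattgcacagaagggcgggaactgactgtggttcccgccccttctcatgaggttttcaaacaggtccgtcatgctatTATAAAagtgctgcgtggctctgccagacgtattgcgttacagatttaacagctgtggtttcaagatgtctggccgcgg
HIST1H4E: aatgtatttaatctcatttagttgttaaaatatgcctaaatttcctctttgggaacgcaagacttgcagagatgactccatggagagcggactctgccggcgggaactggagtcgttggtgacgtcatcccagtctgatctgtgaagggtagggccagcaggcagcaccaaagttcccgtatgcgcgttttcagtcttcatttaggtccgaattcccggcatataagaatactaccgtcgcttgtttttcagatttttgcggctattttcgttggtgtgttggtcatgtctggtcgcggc

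No match in these windows overlapped another, although TATAAA and AAACACA can overlap by their letters. The HIST1H2AJ window held 5 CCAAT matches and an octamer, with its TATA box 31 bases before the start. The HIST1H2BI window held an octamer 45 bases before the start and the E2-box 237 bases before it. HIST1H3A held a TATA box 29 bases before the start and CCAAT matches 93 and 51 bases before it. HIST1H4D held a TATA box 29 bases before the start, and HIST1H4E held none of these letters. Over the histone genes that met 1 FPKM in Zeb1 or EV, the median log2 ratio of Zeb1 to EV was -1.38 in 35 with TATAAA in the window and -1.37 in 17 without. With and without ATTTGCAT it was -1.36 in 24 and -1.41 in 28. For CCAAT it was -1.39 in 45 with it and -0.80 in 7 without, and for AAACACA -0.79 in 6 and -1.38 in 46. CAGGTG was in 2 of these genes and CCGTTA in 1. CCAAT and AAACACA move with histone class, and the part of either was not tested.

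A RefSeq window was matched for 59 of the 67 histone genes, and the share holding each motif was set beside that of all 35116 windows of the same 300 bases. CCAAT was in 86.4% of the histone windows and 34.6% of all windows. It was in every H1, H2A, H2B and H3 window, and in 3 of 11 H4 windows. TATAAA was in 67.8% of the histone windows and 11.5% of all windows. ATTTGCAT was in 44.1% of the histone windows and 1.77% of all windows, and these were 14 of 18 H2B, 11 of 14 H2A and 1 of 10 H3 windows. AAACACA was in all 6 H1 windows and in that of HIST2H2AC. CAGGTG was in 5.08% of the histone windows, those of HIST1H2BD, HIST1H2BI and HIST3H3, and in 20.6% of all windows. CCGTTA was in 3.39% of the histone windows, those of HIST1H3E and HIST1H4G, and in 3.07% of all windows. A match describes letters in a window and is not a binding site.

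The deposited values are FPKM, fragment numbers divided by transcript length and by library size. From the smallest steps between low values, the libraries were estimated at 34500000 fragments for Zeb1, 31500000 for Snail, 24100000 for Ovol2 and 29200000 for EV. A single fragment on a transcript of 400 bases, a usual length for a histone message, would then be worth 0.0724, 0.0794, 0.104 and 0.0855 FPKM in that order. HIST1H3I, of 411 bases, was listed below that, at 0.0332 FPKM in Snail, so the conversion is only rough for short genes. The delivered factors stood where the labels put them, with ZEB1 at 17.3 FPKM in the Zeb1 library, SNAI1 at 99.7 FPKM in the Snail library and OVOL2 at 78.3 FPKM in the Ovol2 library, against 0.260, 0.152 and 6.32 FPKM in EV. Of 6 markers of mammary basal epithelium, all were detected in every library, and in Zeb1 all 6 were lower than in EV by 2-fold or more. In Zeb1, Snail, Ovol2 and EV, KRT17 stood at 1571, 4972, 4624 and 5736 FPKM, KRT5 at 771, 2022, 215 and 2929 FPKM and KRT14 at 70.0, 204, 58.5 and 195 FPKM. In the same order, CDH1 stood at 9.99, 46.0, 30.8 and 60.4 FPKM, TP63 at 4.06, 15.7, 8.23 and 23.9 FPKM and EPCAM at 1.08, 0.683, 5.51 and 6.61 FPKM. Of markers of other cell types, CD3E and HBB were listed at 0 in all 4 libraries, and PTPRC, PECAM1, CDH5 and ALAS2 stayed at or below 0.118 FPKM. CD68 reached 4.86, 2.24, 5.09 and 1.76 FPKM, and VWF reached 1.29 FPKM in the Ovol2 library. The short RNAs RMRP and RPPH1 took 22.1%, 18.7%, 40.6% and 24.6% of all FPKM in Zeb1, Snail, Ovol2 and EV. All FPKM summed to 290694, 357476, 555645 and 374267 in that order. The sums differ between libraries, so these shares do not give the level left for other genes.

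Most histone genes were well above the detection limit in all 4 libraries. At 1 FPKM or more in any library stood 56 of the 67, at 10 FPKM or more 52, and 11 stayed below 1 FPKM everywhere, of which HIST1H2APS1 and HIST1H2BA were listed at 0 in every library. In each library the highest was HIST1H1C, a linker histone gene, at 352 FPKM in Zeb1, 565 in Snail, 397 in Ovol2 and 508 in EV. Across the 56 the median level was 28.5 FPKM in the Zeb1 library, 85.2 in Snail, 80.0 in Ovol2 and 86.9 in EV. At or above 100 FPKM stood 7 histone genes in Zeb1, 26 in Snail, 24 in Ovol2 and 27 in EV. In 52 of the 56 the Zeb1 library was the lowest of the 4, a count that was not made over all genes.

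**Figure D1:**
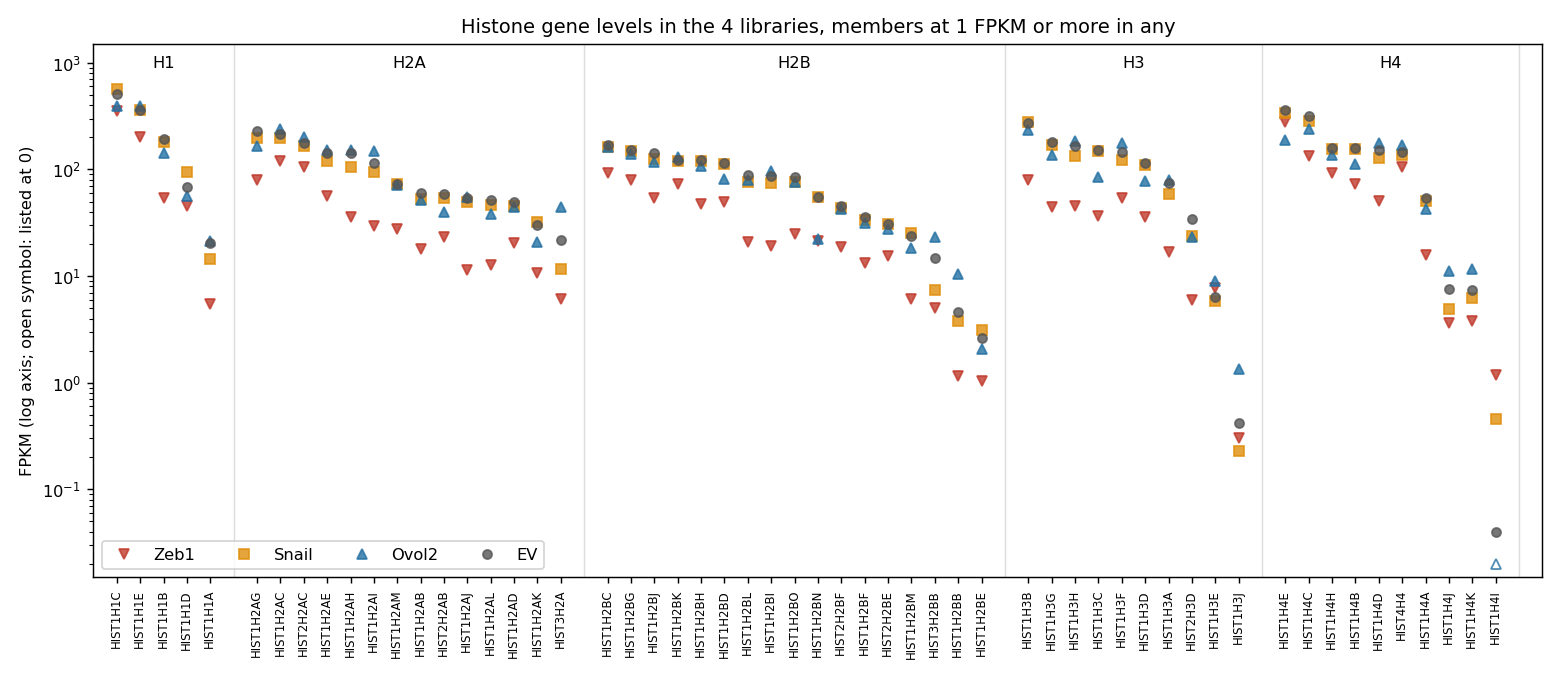
FPKM (log axis) of the 56 histone genes at 1 FPKM or more in any library, grouped by class and ordered by their EV value. Each symbol is 1 library (triangle down Zeb1, square Snail, triangle up Ovol2, circle EV), the open symbol is listed at 0, and the Zeb1 symbol is the lowest in 52 of the 56.

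Summed over all 67 genes, histone RNA came to 2842 FPKM in the Zeb1 library, 5990 in Snail, 5701 in Ovol2 and 6367 in EV. The Zeb1 sum was 0.446 of the EV sum, the Snail sum 0.941 and the Ovol2 sum 0.895. As a share of all FPKM without RMRP and RPPH1, histone RNA was 1.25% in Zeb1, 2.06% in Snail, 1.73% in Ovol2 and 2.26% in EV. On that share the Zeb1 library is again the lowest, with a log2 ratio to EV of -0.85 in place of -1.16.

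By class, H3 genes summed to 327 FPKM in Zeb1, 1049 in Snail, 1005 in Ovol2 and 1146 in EV. H4 genes summed to 759 FPKM in Zeb1, 1264 in Snail, 1089 in Ovol2 and 1361 in EV. H2A genes summed to 554, 1244, 1423 and 1419 FPKM, and H2B genes to 544, 1219, 1171 and 1295 FPKM, in the same order of libraries. H1 genes summed to 657 FPKM in Zeb1, 1214 in Snail, 1013 in Ovol2 and 1146 in EV. Every class was lowest in the Zeb1 library, and the H3 sum stood furthest below EV. In EV the H3 and H1 sums were almost equal, while in Zeb1 the H3 sum was the smallest of the 5 classes.

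**Figure D2:**
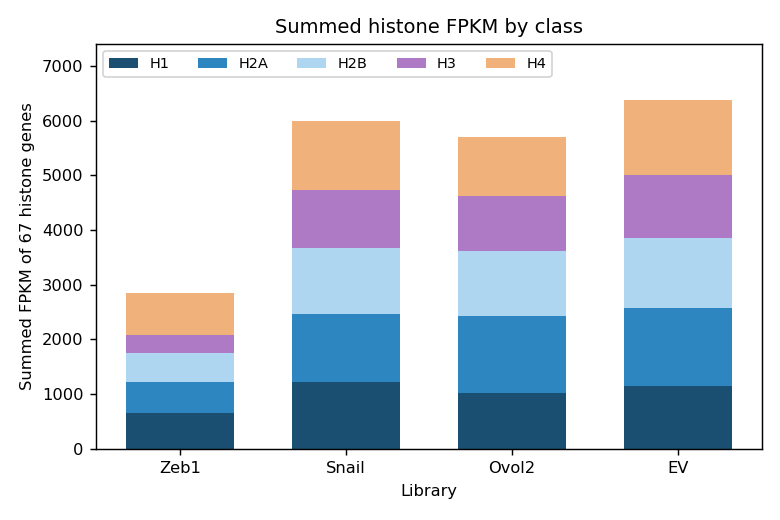
Summed FPKM of the 67 histone genes in each library, stacked by class H1, H2A, H2B, H3 and H4. The Zeb1 bar reaches 2842 FPKM and the EV bar 6367 FPKM, with the Snail and Ovol2 bars at 5990 and 5701 FPKM.

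The comparison of Zeb1 with EV asks which genes differ once this repressor is present. A gene was counted as higher or lower when its FPKM + 1 differed by at least 2-fold, which is a log2 ratio at or beyond 1 or -1, and when at least 1 of the 2 libraries held 1 FPKM. The added 1 FPKM understates the difference of low genes. Of 55 histone genes that met the level, 38 were lower in the Zeb1 library and 1 was higher. Among all 11922 genes that met it, 8.49% were lower and 4.52% higher. The median log2 ratio of the histone genes was -1.38, against -0.09 over all genes. Below 0 stood 53 of the 55, and the range ran from -2.35 for HIST2H3D to 1.08 for HIST1H4I. In bulk libraries, fewer cells in S phase, less histone RNA per cell and a smaller retained share of these messages cannot be told apart.

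H3 genes, which encode the core histone that carries most of the studied tail marks, had the lowest median ratio, -1.84, and 8 of 9 were lower. HIST1H3A stood at 16.9 FPKM in Zeb1, 58.8 in Snail, 80.0 in Ovol2 and 74.6 in EV. HIST1H3G stood at 44.4 FPKM in Zeb1, 170 in Snail, 136 in Ovol2 and 182 in EV. HIST1H3B, the highest H3 gene, stood at 79.3 FPKM in Zeb1, 277 in Snail, 232 in Ovol2 and 271 in EV. In all 3 genes the Zeb1 value lies apart from the other 3 libraries, which lie close together. The log2 ratios of Zeb1 to EV were -2.08 for HIST1H3A and -2.01 for HIST1H3G. HIST2H3D had 5.93 FPKM in Zeb1, 23.9 in Snail, 23.4 in Ovol2 and 34.2 in EV, but 80.4% of its stretches of 50 bases occur in other annotated genes, so its reads could be split among near-identical H3 copies. HIST1H3E is the H3 gene that did not follow, with 7.77 FPKM in Zeb1, 5.88 in Snail, 8.93 in Ovol2 and 6.39 in EV and a Zeb1 log2 ratio of 0.25.

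H2A genes had a median ratio of -1.46 with 12 of 14 lower. HIST1H2AH stood at 35.7 FPKM in Zeb1, 104 in Snail, 152 in Ovol2 and 141 in EV, a Zeb1 log2 ratio of -1.96. HIST1H2AG, the highest H2A gene in EV, stood at 79.5 FPKM in Zeb1, 198 in Snail, 166 in Ovol2 and 228 in EV. The lowest ratio was that of HIST1H2AJ at -2.14, with 11.3 FPKM in Zeb1, 49.2 in Snail, 55.4 in Ovol2 and 53.4 in EV. It shares 83.7% of its 50-base stretches with other genes, so this value is uncertain. The H2A genes that did not pass 2-fold were HIST1H2AC, with 120 FPKM in Zeb1 and 217 in EV, and HIST2H2AC, with 104 FPKM in Zeb1 and 175 in EV.

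H2B genes, whose products pair with H2A, had a median ratio of -1.35 with 12 of 17 lower. HIST1H2BI stood at 19.2 FPKM in Zeb1, 74.7 in Snail, 95.9 in Ovol2 and 85.8 in EV, a Zeb1 log2 ratio of -2.10. HIST1H2BL stood at 21.1 FPKM in Zeb1, 76.3 in Snail, 79.9 in Ovol2 and 87.9 in EV, a Zeb1 log2 ratio of -2.01. At the other end, HIST1H2BK stood at 72.4 FPKM in Zeb1, 119 in Snail, 130 in Ovol2 and 121 in EV, a Zeb1 log2 ratio of -0.74. HIST1H2BK shares 74.1% of its 50-base stretches with other genes.

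H1 and H4 genes had medians nearer to 0 than the other classes. Of 5 H1 genes 2 were lower, and their median was -0.84. HIST1H1B stood at 53.6 FPKM in Zeb1, 181 in Snail, 142 in Ovol2 and 191 in EV, and HIST1H1A at 5.45 FPKM in Zeb1, 14.5 in Snail, 21.4 in Ovol2 and 20.3 in EV. HIST1H1C, HIST1H1D and HIST1H1E did not pass 2-fold. HIST1H1E stood at 201 FPKM in Zeb1, 359 in Snail, 396 in Ovol2 and 359 in EV.

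Of 10 H4 genes 4 were lower and 1 was higher, and the median was -0.84. HIST1H4D stood at 50.6 FPKM in Zeb1, 129 in Snail, 177 in Ovol2 and 153 in EV, and HIST1H4A at 15.9 FPKM in Zeb1, 50.8 in Snail, 42.1 in Ovol2 and 53.8 in EV. Both lay well below the other libraries in Zeb1. HIST1H4E, the highest H4 gene in EV, stood at 278 FPKM in Zeb1, 338 in Snail, 187 in Ovol2 and 359 in EV, a Zeb1 log2 ratio of -0.37. HIST4H4, the gene that lies alone on chromosome 12, stood at 106 FPKM in Zeb1, 135 in Snail, 168 in Ovol2 and 145 in EV, a log2 ratio of -0.45. HIST1H4I stood at 1.19 FPKM in Zeb1, 0.461 in Snail, 0 in Ovol2 and 0.0394 in EV. It is the 1 histone gene counted as higher, and it met the level only through the Zeb1 library. Its EV value is worth about 1.49 fragments by the rough depth estimate.

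**Figure D3:**
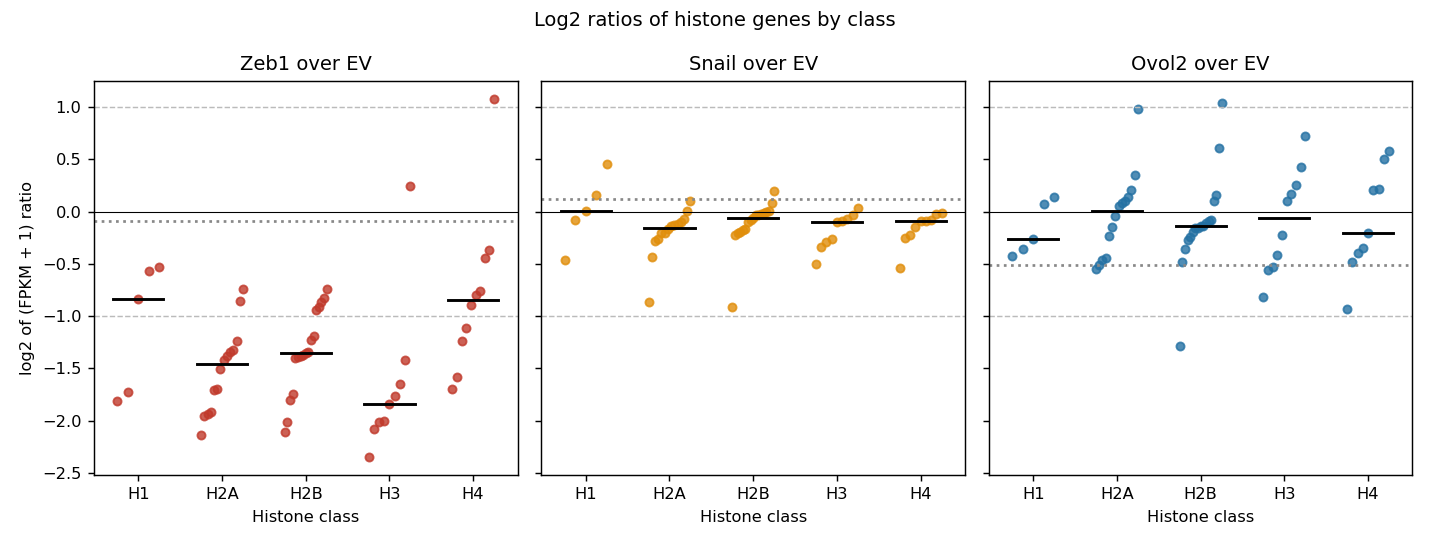
Log2 ratios of FPKM + 1 to EV for each histone gene that met 1 FPKM, by class, for Zeb1, Snail and Ovol2. Each point is 1 gene, black bars are class medians, dashed lines mark 2-fold, and the dotted line is the median of all genes (-0.09, 0.12 and -0.51). The H3 points of Zeb1 lie lowest, with a median of -1.84.

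The lower values were found in each cluster. Of the HIST1 genes on chromosome 6, which in GRCh38 fall before and after 27 Mb, 19 of 29 in the first stretch were lower in Zeb1 with a median of -1.34, and 14 of 18 in the second with a median of -1.62, the second also holding HIST1H4I. On chromosome 1, 5 of 7 were lower with a median of -1.32. Both HIST3 genes that met the level were lower, HIST3H2A with a log2 ratio of -1.70 and HIST3H2BB with -1.40.

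Messages with a poly(A) tail were compared apart, because they enter a poly(A)-selected library by the usual route. HIST1H1C, HIST1H2AC, HIST1H2BD, HIST1H2BK and HIST2H2BE are known to give polyadenylated as well as stem-loop messages. In the Zeb1 library 1 of these 5 was lower, HIST1H2BD, and their median ratio was -0.85. It stood at 49.9 FPKM in Zeb1, 112 in Snail, 81.7 in Ovol2 and 115 in EV. HIST2H2BE missed 2-fold, with 15.6 FPKM in Zeb1, 30.9 in Snail, 27.9 in Ovol2 and 30.8 in EV. Among the other 50 genes, 37 were lower and the median was -1.40. So all 5 lay below 0 in Zeb1, by less than the rest at the median, and no test of that difference is possible with 1 library per group.

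Genes were also grouped by the annotated end of the message, which is a different grouping that holds the same genes. Of the 5 known to be polyadenylated, HIST1H2AC and HIST2H2BE run over 100 bases past the stem-loop. HIST1H2BD falls among those that end within 100 bases of it, and HIST1H1C and HIST1H2BK have no match. In 19 histone genes that met the level and whose v29 transcript runs over 100 bases past the stem-loop, 9 were lower in Zeb1 and the median was -0.94. In 6 whose transcripts end within 100 bases of it, 5 were lower with a median of -1.27. In 30 with no match in the model, 24 were lower with a median of -1.62. Length moves with this grouping, since genes with no match mostly have models that stop at the end of the coding sequence. Its part in the difference was not tested.

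Ratios in the Zeb1 library also moved with transcript length. With all genes put in 10 groups of equal size by length, the median log2 ratio was -0.32 in the shortest group, which held 31 of the histone genes, and 0.13 in the longest group, which held 0. When each gene was set against the median of its own length group, 35 histone genes were lower in Zeb1 and 1 was higher, against 6.69% lower and 5.61% higher of 11293 genes, and the histone median was -1.11.

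In the comparison of Snail with EV, few genes of any kind passed 2-fold. Of 54 histone genes that met the level, 0 were higher and 0 lower, and 1.0% of all 11644 genes were higher and 1.5% lower. With shares this small over all genes, the counts of 0 do not set the histone genes apart. The median was -0.10, against 0.12 over all genes, and 45 of the 54 lay below 0. The class medians lay between -0.15 for H2A and 0.00 for H1.

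The widest Snail ratios belonged to a pair of neighbours on chromosome 1. HIST3H2A stood at 6.08 FPKM in Zeb1, 11.6 in Snail, 44.5 in Ovol2 and 22.0 in EV, a Snail log2 ratio of -0.87. HIST3H2BB stood at 5.02 FPKM in Zeb1, 7.44 in Snail, 23.3 in Ovol2 and 14.9 in EV, a Snail log2 ratio of -0.92. Both genes lay below EV in Snail by just under 2-fold on this scale and above EV in Ovol2, with Ovol2 log2 ratios of 0.99 for HIST3H2A and 0.61 for HIST3H2BB. On the upper side, HIST1H1D stood at 94.0 FPKM in Snail and 68.1 in EV, a log2 ratio of 0.46.

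The comparison of Ovol2 with EV was set against a library in which most genes had a log2 ratio below 0. Over all 11812 genes that met the level, 25.1% were lower and 6.82% higher, with a median of -0.51. Over genes at 5 FPKM or more in both libraries the median was -0.17. Of 55 histone genes, 1 was lower and 1 higher, and their median was -0.14, above that of all genes. H2A genes had a median of 0.01, H3 of -0.06, H2B of -0.14, H4 of -0.20 and H1 of -0.26. These signs depend on the scale, since the histone median became 0.032 when centred on well expressed genes and 0.40 under upper quartile scaling.

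HIST1H2BN was the gene lower in Ovol2, at 21.2 FPKM in Zeb1, 55.0 in Snail, 22.2 in Ovol2 and 55.4 in EV, a log2 ratio of -1.28. An exon of HIST1H2BN overlaps HIST1H2AK on the other strand and HIST1H2AL on its own, and the kit does not mark strand, so reads of these genes cannot be told apart where they overlap. HIST1H2BB was the gene higher in Ovol2, at 1.14 FPKM in Zeb1, 3.80 in Snail, 10.5 in Ovol2 and 4.59 in EV, a log2 ratio of 1.04. Just short of 2-fold lay HIST1H4E at -0.94 and HIST1H3C at -0.82. HIST1H3C stood at 36.9 FPKM in Zeb1, 147 in Snail, 85.0 in Ovol2 and 151 in EV.

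Set against the median of the same 10 length groups, the Ovol2 ratios of the histone genes moved upwards. All genes of the shortest group had a median ratio of -0.39 in Ovol2 and those of the longest group -0.92. After this centring 13.3% of 11211 genes were higher and 9.13% lower. Of the histone genes 4 were then higher and 0 lower, and their median was 0.29. The 4 were HIST1H2BB, HIST1H3J, HIST3H2A and HIST3H2BB. HIST1H3J stood at 0.303 FPKM in Zeb1, 0.231 in Snail, 1.34 in Ovol2 and 0.419 in EV, so it met the level only through the Ovol2 library. It overlaps HIST1H2AM, at 70.8 FPKM in Ovol2 and 72.7 in EV, on the same strand and shares 40.9% of its 50-base stretches with other genes, so its value is uncertain.

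H2A and H2B genes often lie head to head and share the DNA between their starts. In GENCODE v29 there were 11 such pairs with starts 219 to 331 bases apart, and 10 met the level. In Zeb1 the ratios of the 2 genes of a pair differed by a median of 0.25, both were lower in 6 pairs, 1 in 2 pairs and neither in 2. The widest gap was in the pair of HIST1H2AH, at -1.96, and HIST1H2BK, at -0.74, the second of which is known to be polyadenylated and shares sequence with other genes. Other genes of these pairs also share most 50-base stretches, HIST1H2AD 98.0%, HIST1H2AM 86.3%, HIST1H2AJ 83.7% and HIST1H2AI 62.3%. HIST1H2AD and HIST1H2AM overlap another annotated gene on their own strand, whose sequence was counted as shared. In Snail the median gap was 0.08 and the widest 0.41, in the same pair. In Ovol2 the median gap was 0.20 and the widest 0.49, in the pair of HIST1H2AI and HIST1H2BL.

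**Figure D4:**
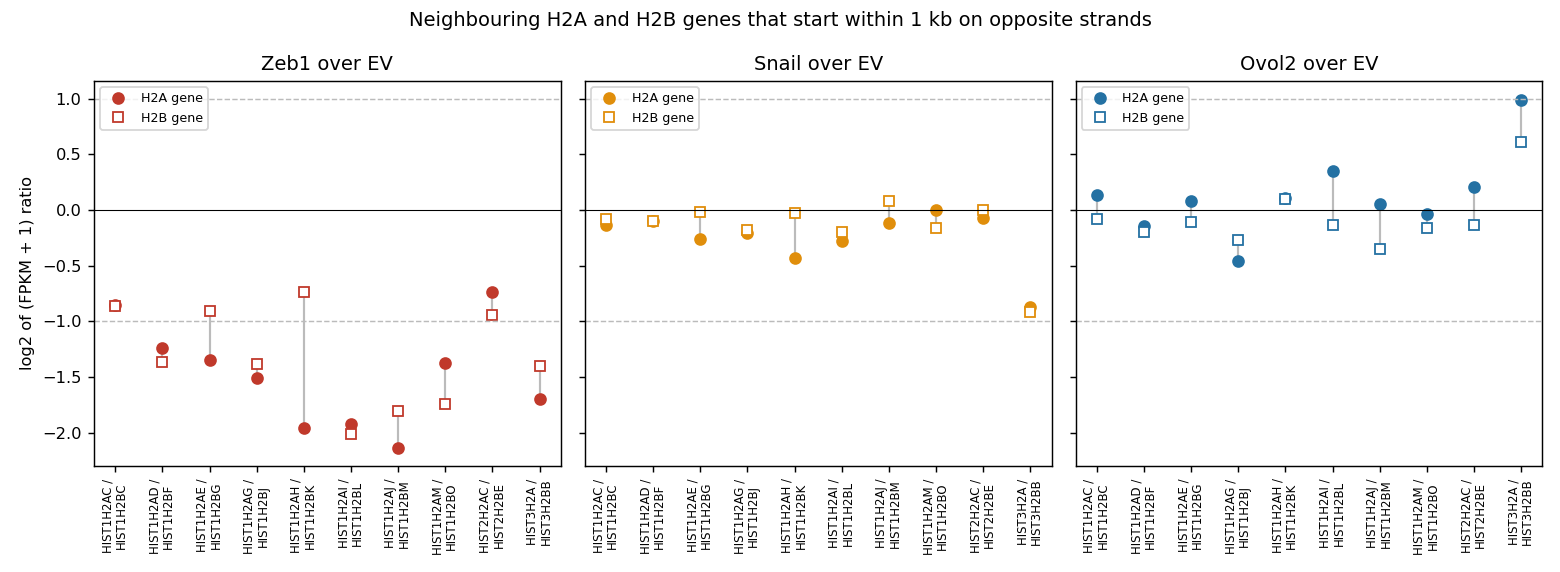
Log2 ratios of FPKM + 1 to EV for the H2A gene (filled circle) and H2B gene (open square) of 10 head-to-head pairs, with a line joining each pair and dashed lines at 2-fold. In Zeb1 the widest line joins HIST1H2AH at -1.96 and HIST1H2BK at -0.74.

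Genes that work with the histone genes gave the following values beside them. Of 20 S phase genes, which drive or carry out DNA replication, 11 were lower in Zeb1, against 8.49% of all genes, 0 were higher, all 20 lay below 0 and the median was -1.03. TK1, thymidine kinase, stood at 4.69 FPKM in Zeb1, 17.3 in Snail, 18.8 in Ovol2 and 17.3 in EV. MCM2, a subunit of the replicative helicase, stood at 3.22 FPKM in Zeb1, 11.5 in Snail, 4.63 in Ovol2 and 12.1 in EV. The S phase genes and the histone genes were thus both lower in the Zeb1 library, and the part of one in the other was not tested. In Snail 0 of the 20 were higher or lower, against 1.0% and 1.5% of all genes, with a median of 0.08. In Ovol2 6 were lower, a share near the 25.1% of all genes, and 0 higher. The median of the 20 was -0.71, against -0.51 over all genes and -0.17 over genes at 5 FPKM or more in both libraries.

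Of 15 genes for histone mRNA transcription and processing, 0 were higher or lower in Zeb1, with a median of -0.09. Over all genes 4.52% were higher and 8.49% lower. SLBP, which binds the stem-loop, stood at 17.1 FPKM in Zeb1, 24.4 in Snail, 21.4 in Ovol2 and 21.3 in EV. NPAT, the cyclin E and CDK2 substrate that switches on histone transcription, stood at 4.93 FPKM in Zeb1, 4.90 in Snail, 1.19 in Ovol2 and 3.56 in EV. In Snail 0 of the 15 were higher or lower, against 1.0% and 1.5% of all genes, with a median of 0.27. In Ovol2 3 were lower, CASP8AP2 at -1.21, SYMPK at -1.09 and NPAT at -1.06, and the median was -0.71. That count is no larger a share than the 25.1% of all genes lower in Ovol2.

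Among 13 histone chaperones, which hand histones to DNA, 1 was lower in Zeb1, ASF1B at -1.41, which is near the 8.49% of all genes, and the median was -0.33. In Ovol2 4 were lower, NAP1L1 at -1.85, ATRX at -1.82, NASP at -1.57 and CHAF1A at -1.27, a share near the 25.1% of all genes. The median of the 13 was -0.74, against -0.51 over all genes and -0.17 over genes at 5 FPKM or more in both libraries. In Snail 0 were higher or lower, against 1.0% and 1.5% of all genes, with a median of 0.22.

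Most replication-independent histone genes, whose messages usually carry poly(A) tails, did not pass 2-fold in Zeb1. The same holds for most of all genes. Of 9 that met the level 2 were higher and 1 lower, against 4.52% and 8.49% of all genes. Of the 9, 6 lay below 0, and the median was -0.06. Among those below 0, CENPA, the centromeric H3, had a Zeb1 log2 ratio of -0.94, H2AFY, which encodes macroH2A, -0.90 and H2AFZ, which encodes H2A.Z, -0.57. H1F0, a linker histone of cells that have left the cycle, stood at 24.4 FPKM in Zeb1, 12.5 in Snail, 13.0 in Ovol2 and 7.80 in EV, a Zeb1 log2 ratio of 1.53. H2AFJ, an H2A variant, stood at 19.7 FPKM in Zeb1, 8.97 in Snail, 13.5 in Ovol2 and 6.88 in EV, a Zeb1 log2 ratio of 1.39. H2AFX, the variant phosphorylated at DNA breaks, was the lower one at 9.67 FPKM in Zeb1, 19.4 in Snail, 24.7 in Ovol2 and 21.0 in EV. Whether genes of this list, H2AFX among them, also give stem-loop messages was not tested. In Snail 0 of the 9 were higher or lower, against 1.0% and 1.5% of all genes, with a median of 0.14. In Ovol2 only H2AFV was lower, at -1.60, against 25.1% of all genes, and the median was 0.01.

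**Figure D5:**
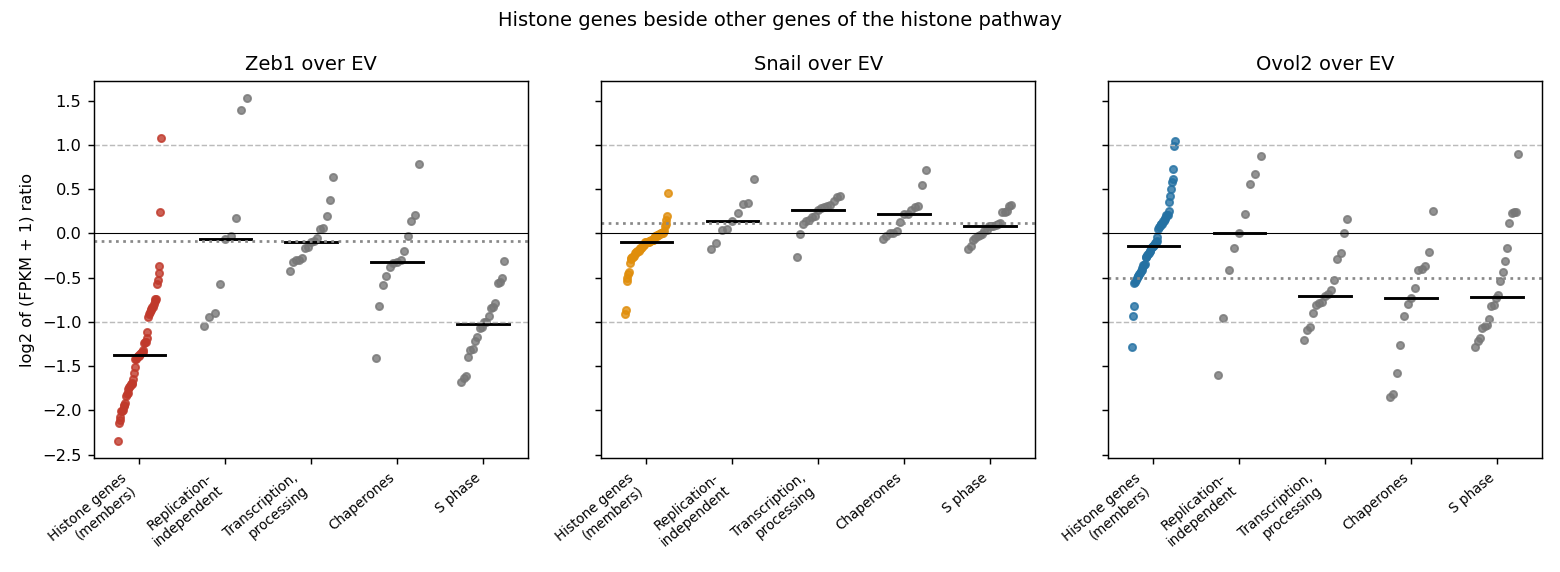
Log2 ratios of FPKM + 1 to EV for the histone genes beside 4 lists of related genes, for Zeb1, Snail and Ovol2. Each point is 1 gene, black bars are list medians, dashed lines mark 2-fold and the dotted line is the median of all genes. In Zeb1 the histone genes (-1.38) and S phase genes (-1.03) have the lowest medians.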

How the data were processed

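RNA was measured in 4 libraries of 1 sample per group. The authors deposited 3 tables, each with EV and 1 factor library, of 25360 rows, 43 of which repeat a symbol and were summed. Their expression values were taken as FPKM, since Cufflinks is named, with TopHat, Cuffdiff and hg19, per the submitters' processing notes; versions, annotation, strand setting and further scaling are not given in the sources used here, and no column header names the unit. Per the file headers, the tables also hold a signed fold score and an adjusted p-value from the authors' comparison of single values, used only as an alternative. Log2 ratios of FPKM + 1 were computed over all genes in Python 3.11.15 with pandas 2.3.3 and numpy 2.4.6, and the calculation was tested on simulated data. Depth was estimated from the spacing of low values and limits genes near 1 fragment. Intervals were not computed, as counts are not in the tables. Transcript lengths, stem-loops and shared 50-base stretches came from GENCODE v29, and promoters from RefSeq. The members and lists were chosen with earlier results of these data known. Histone genes were named when at 10 FPKM or more in any library, among the 5 highest or lowest ratios of a comparison, or known to be polyadenylated. Alternatives were other pseudocounts, filters, scalings and fold rules, centring by length, the authors' folds, and leaving out near-identical copies.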

Additional observations from a re-analysis of the deposited data

How the results depend on the processing

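The number of histone genes lower in Zeb1, 38 as reported, lay between 32 and 49 and their median between -1.07 and -1.41 under every alternative run. The 32 came from leaving out the 10 genes with over 50% of their 50-base stretches shared, a choice made after seeing the data. The Zeb1 summed log2 ratio became -0.85 with a fixed sum without RMRP and RPPH1. The 1 gene higher in Zeb1 became 0 with a pseudocount of 2 FPKM or a filter at 5 FPKM, and 4 by the authors' deposited table. For Snail, the 0 lower genes became 2 when centred on well expressed genes, 2 under upper quartile scaling, 1 by length groups, 2 at 1.5-fold and 2 by the authors' deposited table, which gave 5 higher in place of 0. The authors' table was counted without the level of 1 FPKM, so its counts in every comparison take in genes near 0. Of its 5 higher in Snail, HIST1H3I, HIST1H4F, HIST1H4L and HIST2H2BA were listed at 0 in EV and at or below 0.083 FPKM in Snail. The other was HIST1H4I, at 0.461 FPKM in Snail and 0.0394 in EV. For Ovol2, the 1 higher gene became 3 with a pseudocount of 0.1 FPKM, 0 with 2 FPKM, 2 when centred, 0 with the fixed sum, 6 under upper quartile scaling, 4 by length, 4 at 1.5-fold and 9 by the authors' deposited table. The 1 lower gene in Ovol2 became 3 with the fixed sum, 0 under upper quartile scaling, 0 by length, 3 at 1.5-fold and 4 by the authors' deposited table. The Ovol2 median of -0.14 became 0.032 when centred, 0.40 under upper quartile scaling and 0.29 by length, and the summed log2 ratio of -0.16 became 0.40 under upper quartile scaling. The causes were not tested beyond what each scaling does by construction. No paired analysis was possible because each group held 1 library, and for the same reason no replicate could be left out.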
